A study of Homo sapiens with 8 samples.

Results

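The small proline-rich (SPRR) genes were described as a family, taken as the 10 genes of the deposited expression table named SPRR1A, SPRR1B, SPRR2A, SPRR2B, SPRR2D, SPRR2E, SPRR2F, SPRR2G, SPRR3 and SPRR4, out of 25369 genes in all. Their transcripts were measured by RNA sequencing in EPC2-hTERT, an esophageal epithelial cell line immortalised with telomerase. The HIF1A-KD cells carried a lentiviral short hairpin RNA against HIF1A, the gene for the hypoxia-stabilised partner within HIF-1, and the shCtrl cells carried a control hairpin delivered the same way. Each group had 4 libraries, numbered 1 to 4, and the labels do not say whether the numbers are separate cultures, so p-values measure the spread between these libraries, which may be technical. All cells grew for 2 days on membranes with 0.4 µm pores, then had 5 days at 1.8 mM calcium chloride, and met air for the last 4 days. A vehicle and the hydroxylase inhibitor dimethyloxalylglycine appear in the protocol without being tied to any library. The labels do not say how many hairpins or clones either line holds, so a difference between the hairpins and one between the lines cannot be told apart.

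SPRR proteins are small precursors of the cornified envelope, the cross-linked protein shell that replaces the plasma membrane of a terminally differentiated squamous cell. Transglutaminases join them to each other and to larger scaffold proteins such as loricrin and involucrin through the glutamines and lysines at their ends, while their centres are built from short proline-rich repeats. The genes sit together in the epidermal differentiation complex on chromosome 1. SPRR3 is characteristic of the esophagus and other moist stratified epithelia, whereas SPRR4 is known as a member induced in skin by ultraviolet light.

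The sequences show how closely related the members are. The first lines below are coding sequences from the GENCODE v29 transcripts (GRCh38). In SPRR1A, capitals mark codons of the form CCN, which encode proline, and in SPRR2G they mark the bases that differ from the aligned SPRR2E, which is printed in lower case as the comparison.
SPRR1A: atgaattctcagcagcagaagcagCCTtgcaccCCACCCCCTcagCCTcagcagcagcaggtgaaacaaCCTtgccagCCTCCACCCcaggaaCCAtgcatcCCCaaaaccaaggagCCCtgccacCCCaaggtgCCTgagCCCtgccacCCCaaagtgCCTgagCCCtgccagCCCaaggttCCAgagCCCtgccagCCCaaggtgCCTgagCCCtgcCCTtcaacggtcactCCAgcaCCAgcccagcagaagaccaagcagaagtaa
SPRR2E: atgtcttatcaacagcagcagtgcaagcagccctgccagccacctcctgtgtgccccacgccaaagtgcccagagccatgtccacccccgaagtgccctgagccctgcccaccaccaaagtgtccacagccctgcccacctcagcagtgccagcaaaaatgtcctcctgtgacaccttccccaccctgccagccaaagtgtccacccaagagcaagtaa
SPRR2G: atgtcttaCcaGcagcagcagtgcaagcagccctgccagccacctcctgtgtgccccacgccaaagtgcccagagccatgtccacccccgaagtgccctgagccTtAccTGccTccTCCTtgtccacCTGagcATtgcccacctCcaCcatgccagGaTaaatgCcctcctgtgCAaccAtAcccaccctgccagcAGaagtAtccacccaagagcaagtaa
In SPRR1A, 27 of 89 codons were CCN (30.3%), against 29 of 73 in SPRR2G (39.7%) and 13 of 79 in SPRR4 (16.5%). SPRR2G differed from SPRR2E at 28 of its 222 bases. It matched the other SPRR2 members at 85.7 to 87.0% of aligned positions, while SPRR2A, SPRR2B, SPRR2D, SPRR2E and SPRR2F matched each other at 96.8 to 99.5%. SPRR1A and SPRR1B shared 96.3%. These likenesses bear on the read counts. Of the 50-base stretches of the coding sequence, 84.1% in SPRR2A, 88.2% in SPRR2B, 64.1% in SPRR2D and 70.6% in SPRR2E also occurred in another SPRR transcript. That share was 24.9% in SPRR2G, 17.1% in SPRR2F, 11.3% in both SPRR1A and SPRR1B, and 0% in SPRR3 and SPRR4. For stretches of 100 bases it was 0% in SPRR1A and SPRR2G and 77.5% in SPRR2A and SPRR2B. Over whole transcripts, from which reads come, the share of 50-base stretches was lower, at 32.7% in SPRR2A, 32% in SPRR2B, 26.8% in SPRR2D, 23.0% in SPRR2E, 18.2% in SPRR2F, 8.29% in SPRR2G and 4.38% in SPRR1B. At 100 bases it was 20.3% in SPRR2A, 18.1% in SPRR2B, 4.56% in SPRR2D and 12.1% in SPRR2E. The SPRR1A transcript used holds the coding bases alone, 270 bases against a length of 655 in the deposited expression table. Sharing outside the coding bases was therefore not measured for SPRR1A, and the 4.38% of SPRR1B may be too low. No source used here gives the read length. The division of the reads from these shared stretches among SPRR2A, SPRR2B, SPRR2D and SPRR2E is thus uncertain, and less so for SPRR3 and SPRR2G. For SPRR1A it can be judged on the coding bases alone.

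The promoters of the members that the results turn on follow, with SPRR2A as an abundant member whose groups overlapped. Each is the 250 bases before the RefSeq gene start in GRCh38.p14, on the strand of the gene: SPRR1A at chr1:152983831-152984080, plus strand; SPRR3 at chr1:153001499-153001748, plus strand; SPRR2A at chr1:153057513-153057762, minus strand; SPRR2G at chr1:153150891-153151140, minus strand. Capitals mark matches to TGANTCA (an AP-1-like pattern), ATTTGCAT (the octamer) and TATAAA (the TATA box). TGANTCA allows any middle base, so it is looser than the AP-1 consensus, which has G or C there.
SPRR1A: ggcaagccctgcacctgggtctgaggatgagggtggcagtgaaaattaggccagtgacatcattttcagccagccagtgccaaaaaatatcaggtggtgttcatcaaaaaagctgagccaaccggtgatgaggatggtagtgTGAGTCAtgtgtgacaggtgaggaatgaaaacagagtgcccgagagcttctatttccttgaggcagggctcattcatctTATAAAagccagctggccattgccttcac
SPRR3: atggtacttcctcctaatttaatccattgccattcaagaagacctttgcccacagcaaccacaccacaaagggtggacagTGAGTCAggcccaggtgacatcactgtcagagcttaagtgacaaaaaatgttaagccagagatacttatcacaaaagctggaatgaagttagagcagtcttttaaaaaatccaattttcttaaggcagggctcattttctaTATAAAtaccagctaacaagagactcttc
SPRR2A: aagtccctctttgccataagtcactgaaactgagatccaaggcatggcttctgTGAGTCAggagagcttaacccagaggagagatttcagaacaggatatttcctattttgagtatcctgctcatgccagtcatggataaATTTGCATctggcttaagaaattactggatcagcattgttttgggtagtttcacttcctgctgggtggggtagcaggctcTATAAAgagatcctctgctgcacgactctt
SPRR2G: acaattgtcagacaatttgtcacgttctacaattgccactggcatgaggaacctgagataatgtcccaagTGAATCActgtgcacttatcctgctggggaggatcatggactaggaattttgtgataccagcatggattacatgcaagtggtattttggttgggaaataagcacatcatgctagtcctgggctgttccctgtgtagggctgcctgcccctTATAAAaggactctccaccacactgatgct
RefSeq promoters were matched for 8 of the 10 members, all but SPRR2D and SPRR2E. Both strands were searched. TGANTCA occurred in 6 of the 8 (not in SPRR2B or SPRR4), against 6.57% of 35116 promoters of the same length. The only match in SPRR2G was TGAATCA, which is outside the AP-1 consensus. The matches in SPRR1A, SPRR3, SPRR2A and SPRR2F were TGAGTCA, and SPRR1B held both forms. TATAAA occurred in 7 of the 8 (not in SPRR1B), against 10.7%, and ATTTGCAT in SPRR2A, SPRR2B and SPRR2F alone, against 1.63%. TGACNTCA, written in the form bound by ATF or CREB factors, occurred in SPRR1A and SPRR3, against 6.87%. Of the cores of the hypoxia response element, ACGTG occurred in SPRR2G alone, on the opposite strand from base −230 to −226, against 18.5%, and GCGTG in none of the 8, against 32.2%. The Ets core AGGAA was in all 8 and in 56.8% of promoters. TTTCACTTC, the IRF-like element, was in SPRR2A alone, against 0.439%, and GGGTGGG, a KLF or Sp-like box, in SPRR2A and SPRR2B, against 18.2%. A match is a run of letters and was not tested for binding. The promoter of SPRR2G shared 54.3 to 56.4% of aligned bases with those of SPRR2A, SPRR2B and SPRR2F, and SPRR2A and SPRR2F shared 85.7%. With the promoters of SPRR1A, SPRR1B, SPRR3 and SPRR4 it shared 47.1 to 53.0%. Promoters of unlike type reached 54.8%, between SPRR1A and SPRR4, so the share of SPRR2G with its own type is little above that.

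The knockdown was checked first. HIF1A held 27.6, 19.0, 54.8 and 45.0 RPKM (reads scaled by gene length and by the library total) in HIF1A-KD libraries 1 to 4, against 95.2, 51.4, 89.8 and 122 RPKM in shCtrl libraries 1 to 4. It was lower in HIF1A-KD within every number, although HIF1A-KD 3 lay above shCtrl 2. The log2 change was −1.34 (limma adjusted p = 0.319 without a block and 0.0253 with the library number as a block). That call was lost without number 1, 2 or 4 (limma adjusted p from 0.0524 to 0.175), and the fit with libraries 1 and 2 parted from 3 and 4 gave 0.0521. A two-sided exact permutation test of 4 against 4 gave p = 0.0571, where the smallest possible is 0.0286.

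Across the libraries, the recovered totals ran from 38068729 to 65326907 reads. The first principal component (41.9% of the variance) separated libraries 1 and 2 from the other two numbers, and the labels give no reason. Of the squamous markers, KRT5, the basal keratin, held 4977 ± 381 RPKM in HIF1A-KD and 5261 ± 991 RPKM in shCtrl (SD, n = 4 each). Summed markers of fibroblasts were 0 to 0.0572 RPKM in HIF1A-KD and 0 to 0.145 RPKM in shCtrl. Those of leukocytes were 19.1 to 86.3 RPKM in HIF1A-KD and 23.5 to 115 RPKM in shCtrl, nearly all of it from CD68, a lysosomal gene, at 51.0 ± 27.6 RPKM in HIF1A-KD and 71.2 ± 40.2 RPKM in shCtrl (SD, n = 4 each), with PTPRC and CD3E, which define leukocytes and T cells, listed at 0. Endothelial markers summed to 1.39 to 12.8 RPKM in HIF1A-KD and 0.748 to 15.4 RPKM in shCtrl, with VWF at 5.10 RPKM in HIF1A-KD and 4.71 RPKM in shCtrl on average. Melanocyte markers summed to 0.260 to 1.95 RPKM in HIF1A-KD and 0.342 to 0.9003 RPKM in shCtrl, with PMEL at 0.985 RPKM in HIF1A-KD and 0.671 RPKM in shCtrl on average and MLANA and TYR listed at 0. Simple-epithelium markers summed to 65.2 to 110 RPKM in HIF1A-KD and 66.4 to 106 RPKM in shCtrl. Of these, KRT18 averaged 72.4 RPKM in HIF1A-KD and 62.4 RPKM in shCtrl, and KRT8 15.1 RPKM in HIF1A-KD and 19.5 RPKM in shCtrl. EPCAM averaged 0.969 RPKM in HIF1A-KD and 0.818 RPKM in shCtrl, and CDX2 was listed at 0. Their part in the SPRR results was not tested. Of the keratins of stratified mucosa, KRT4 held 1521 ± 355 RPKM in HIF1A-KD and 386 ± 242 RPKM in shCtrl, and KRT13 held 801 ± 330 RPKM in HIF1A-KD and 253 ± 289 RPKM in shCtrl (SD, n = 4 each). Neither passed limma (adjusted p = 0.107 for KRT4 and 0.464 for KRT13 without the block, 0.0786 and 0.116 with it), and their part was likewise not tested. In these bulk libraries, fewer cells that make a transcript and less of it per cell cannot be told apart.

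Within the family, SPRR1A and SPRR3 were higher and SPRR2G was lower in HIF1A-KD, with no overlap between the groups, and the other 7 members overlapped. SPRR1A rose and SPRR2G fell in the fit with the library number as a block, and SPRR3 passed neither fit. That block treats libraries of 1 number as pairs, which the labels do not give and which is uncertain for numbers 3 and 4. The intervals of the block fit and the differences by number rest on it too. All 10 members were above 0.5 RPKM in all 8 libraries and all were tested. Without the block, limma called 0 of the 10 at an adjusted p under 0.05, as it called 0.042% of 11899 genes, and 3 of the 10 had an unadjusted p under 0.05 (SPRR1A, SPRR2G and SPRR3), against 7.8% of genes. With the block it called 2 of the 10, against 1.83%, of which 1 was higher (0.74% of genes) and 1 lower (1.09%). Limma-voom on recovered reads called 0 of the 10. The groups did not overlap for 3 of the 10 members, against 5.4% of tested genes. The median log2 change of the members was −0.23 with 4 of 10 above 0, and that of all tested genes was 0.064 with 58.7% above 0. The members were chosen with earlier results in view, so these shares are a description.

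**Figure D1:**
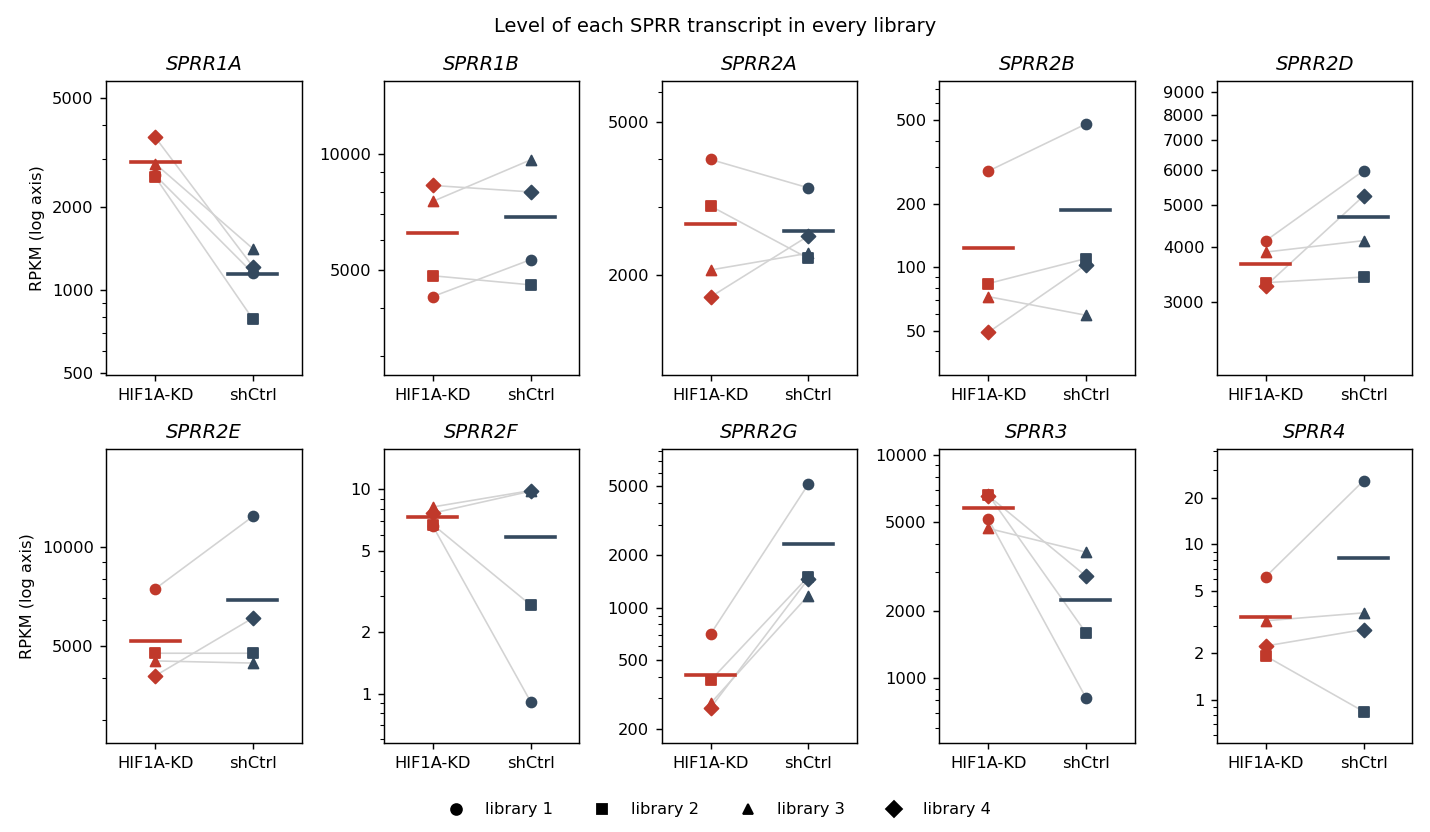
RPKM (log axis) of each SPRR transcript in the 4 HIF1A-KD libraries (red, left) and the 4 shCtrl libraries (blue, right), where marker shape gives the library number, grey lines join libraries of the same number and bars are group means. SPRR1A and SPRR3 sit higher in every HIF1A-KD library than in any shCtrl library, SPRR2G sits lower, and the other 7 members overlap.

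SPRR1A, an SPRR1-type envelope precursor, held 2617, 2582, 2884 and 3596 RPKM in HIF1A-KD libraries 1 to 4, against 1154, 785, 1416 and 1218 RPKM in shCtrl libraries 1 to 4. The lowest HIF1A-KD library stood above the highest shCtrl library, and both groups were tight. The means were 2920 ± 471 RPKM in HIF1A-KD and 1143 ± 263 RPKM in shCtrl (SD, n = 4 each), and the log2 change was 1.37 (SE 0.21 without and 0.13 with the block). Limma gave an adjusted p of 0.0629 without the block and 0.0113 with it, with a 95% interval of 1.05 to 1.69 in the block fit. Within numbers 1 to 4 the log2 differences were 1.18, 1.72, 1.03 and 1.56, so all were past 1. The call with the block was lost without the libraries numbered 2 (log2 change 1.26, limma adjusted p = 0.0874).

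SPRR3, the esophageal member, was the second most abundant SPRR transcript in HIF1A-KD by mean and the sixth in shCtrl. It held 5188, 6660, 4698 and 6590 RPKM in HIF1A-KD libraries 1 to 4, against 820, 1601, 3676 and 2874 RPKM in shCtrl libraries 1 to 4. The groups did not overlap, but the shCtrl libraries spread 4.48-fold while the HIF1A-KD libraries spread 1.42-fold. The means were 5784 ± 992 RPKM in HIF1A-KD and 2243 ± 1277 RPKM in shCtrl (SD, n = 4 each). The log2 change was 1.57 (SE 0.42 without and 0.37 with the block), which did not pass limma either way (adjusted p = 0.309 and 0.107). Its 95% interval in the block fit was 0.63 to 2.50. By number the log2 differences were 2.66, 2.06, 0.35 and 1.20, all above 0 and smallest in number 3.

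SPRR2G, the most divergent SPRR2 coding sequence shown above, went the other way. It held 703, 381, 280 and 264 RPKM in HIF1A-KD libraries 1 to 4, against 5139, 1507, 1175 and 1462 RPKM in shCtrl libraries 1 to 4. Every HIF1A-KD library lay below every shCtrl library, and library 1 was the highest of each group. The means were 407 ± 204 RPKM in HIF1A-KD and 2321 ± 1884 RPKM in shCtrl (SD, n = 4 each), so HIF1A-KD held 17.5% of the shCtrl mean. Without shCtrl 1 the shCtrl mean was 1381 RPKM and the share 29.5%. The log2 change was −2.35 (SE 0.49 without and 0.16 with the block), with a limma adjusted p of 0.164 without the block and 0.00435 with it. The 95% interval in the block fit was −2.73 to −1.97. By number the log2 differences were −2.87, −1.98, −2.07 and −2.47. Without shCtrl 1 the change in the fit without a block was −1.87 (limma adjusted p = 0.150), and the block fits that left out 1 number at a time called it each time (limma adjusted p from 0.00902 to 0.0449).

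**Figure D2:**
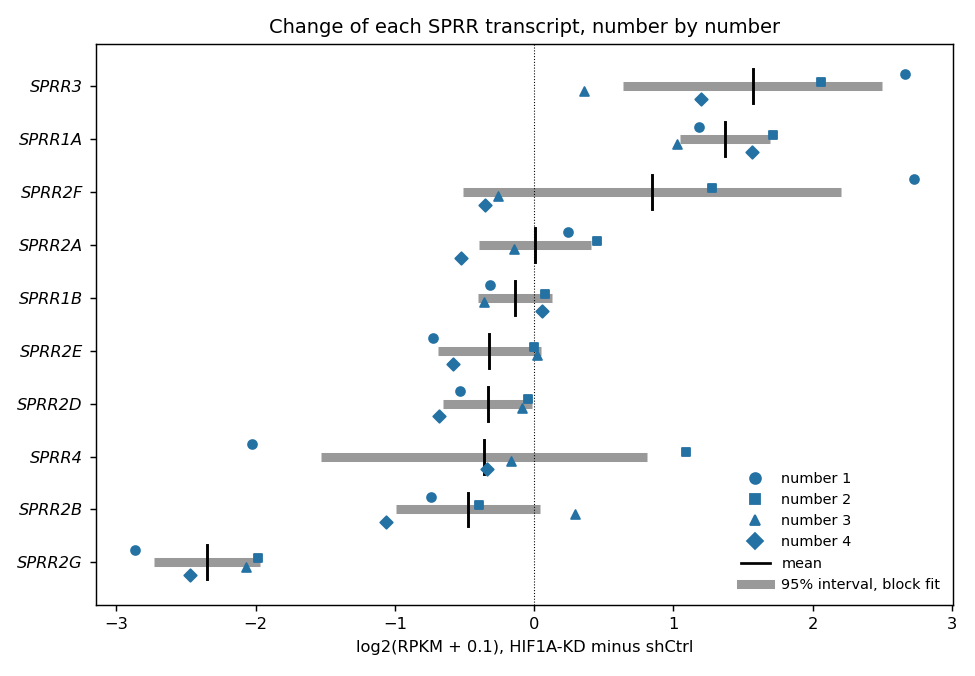
Difference in log2(RPKM + 0.1), HIF1A-KD minus shCtrl, for each SPRR member on the vertical axis, where markers are the 4 library numbers, the black tick is their mean and the grey bar is the 95% interval of the limma fit with the number as a block. SPRR1A lies between 1.03 and 1.72 and SPRR2G between −2.87 and −1.98. SPRR1B, SPRR2A, SPRR2B, SPRR2E, SPRR2F and SPRR4 have numbers on both sides of 0.

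The remaining SPRR1 member, SPRR1B, is nearly identical to SPRR1A in coding sequence and did not follow it. SPRR1B held 4279, 4844, 7547 and 8298 RPKM in HIF1A-KD libraries 1 to 4, against 5331, 4588, 9664 and 7985 RPKM in shCtrl libraries 1 to 4. In both groups libraries 3 and 4 were high and libraries 1 and 2 low. Its log2 change was −0.14, with a 95% interval of −0.40 to 0.13 in the block fit (limma adjusted p = 0.986 without and 0.540 with the block). The ratio of SPRR1A to SPRR1B was 0.612, 0.533, 0.382 and 0.433 in HIF1A-KD, against 0.216, 0.171, 0.147 and 0.153 in shCtrl, without overlap. It uses the same SPRR1A levels and is no separate support.

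Of the 3 other abundant SPRR2 members, SPRR2D, SPRR2E and SPRR2A, none passed either fit. SPRR2D held 4138, 3320, 3898 and 3266 RPKM in HIF1A-KD, against 5973, 3420, 4139 and 5232 RPKM in shCtrl, and was lower in HIF1A-KD within all 4 numbers. Its log2 change was −0.33 (limma adjusted p = 0.800 without and 0.239 with the block), with a 95% interval of −0.65 to −0.015 in the block fit. SPRR2E held 7469, 4769, 4520 and 4074 RPKM in HIF1A-KD, against 12375, 4769, 4453 and 6098 RPKM in shCtrl. The groups overlapped and shCtrl 1 was 2.59 times the median of the other shCtrl libraries. Its log2 change of −0.32 (limma adjusted p = 0.943 without and 0.307 with the block) was 0.000437 without shCtrl 1. SPRR2A held 3998, 3024, 2062 and 1754 RPKM in HIF1A-KD, against 3373, 2211, 2279 and 2527 RPKM in shCtrl. HIF1A-KD was the higher in numbers 1 and 2 and the lower in numbers 3 and 4, and the log2 change over all was 0.0064, with a 95% interval of −0.40 to 0.41 in the block fit (limma adjusted p = 1.00 without and 0.989 with the block).

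Levels were lower for SPRR2B and far lower for SPRR2F and SPRR4. SPRR2B held 286, 83.7, 72.6 and 49.0 RPKM in HIF1A-KD, against 479, 110, 59.2 and 103 RPKM in shCtrl, with library 1 far above the rest in each group. Its log2 change was −0.48 (limma adjusted p = 0.975 without and 0.286 with the block), and 0.14 without shCtrl 1. SPRR2F held 6.62, 6.72, 8.20 and 7.65 RPKM in HIF1A-KD, against 0.913, 2.72, 9.86 and 9.80 RPKM in shCtrl. The HIF1A-KD libraries were alike, while shCtrl 1 and 2 lay below all of them and shCtrl 3 and 4 above. The log2 change was 0.85 (limma adjusted p = 0.874 without and 0.447 with the block), on 29 to 339 reads a library. SPRR4 held 6.21, 1.92, 3.24 and 2.23 RPKM in HIF1A-KD, against 25.6, 0.846, 3.64 and 2.84 RPKM in shCtrl, on 28 to 951 reads. The shCtrl libraries held both the highest and the lowest value. Its log2 change was −0.36 (limma adjusted p = 0.987 without and 0.722 with the block), and 0.53 without shCtrl 1. Every other member had at least 1234 reads in each library.

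The shares of single members within the family differed between the groups, while the summed level had nearly the same mean in both. Summed SPRR levels were 28691, 25672, 25973 and 27901 RPKM in HIF1A-KD libraries 1 to 4, against 34671, 18995, 26875 and 27512 RPKM in shCtrl libraries 1 to 4. The means, 27059 ± 1469 RPKM in HIF1A-KD and 27013 ± 6408 RPKM in shCtrl (SD, n = 4 each), differed by less than either SD. SPRR1A made up 10.8 ± 1.62% of the sum in HIF1A-KD and 4.29 ± 0.80% in shCtrl. SPRR3 made up 21.4 ± 3.98% in HIF1A-KD and 8.73 ± 4.76% in shCtrl, and SPRR2G 1.49 ± 0.68% in HIF1A-KD and 8.11 ± 4.72% in shCtrl. The 6 SPRR2 members together made up 44.6 ± 10.04% in HIF1A-KD and 60.8 ± 14.2% in shCtrl (SD, n = 4 each), where the groups overlapped. These shares rest on RPKM, which is scaled by length, and on the division of reads among like members. For SPRR1A, SPRR3 and SPRR2G they largely restate levels that already did not overlap, so they are no further support.

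**Figure D3:**
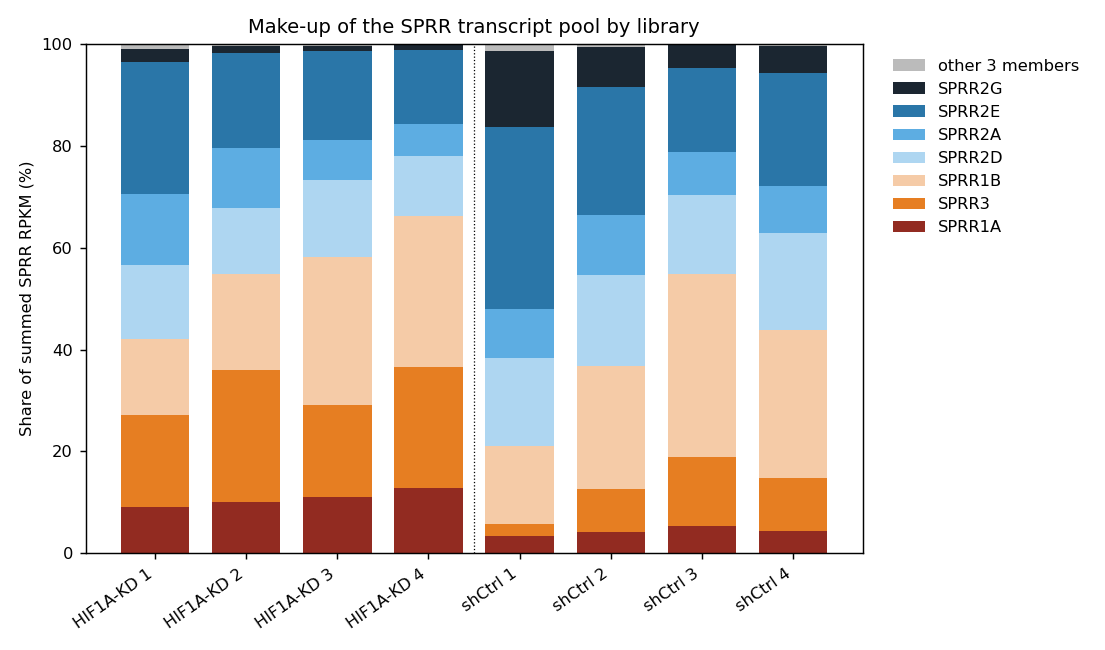
Share of the summed SPRR RPKM (%) taken by each member in the 4 HIF1A-KD libraries (left of the dotted line) and the 4 shCtrl libraries (right), with SPRR2B, SPRR2F and SPRR4 pooled as the other 3 members. The SPRR1A and SPRR3 segments are taller in each HIF1A-KD library than in any shCtrl library, and the SPRR2G segment is shorter.

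Ratios within a library do not depend on library scaling. The ratio of SPRR1A to SPRR2G was 3.72, 6.78, 10.3 and 13.6 in HIF1A-KD libraries 1 to 4, against 0.225, 0.521, 1.21 and 0.833 in shCtrl libraries 1 to 4. SPRR1A was therefore above SPRR2G in every HIF1A-KD library and below it in 3 of the 4 shCtrl libraries. Each of these genes already separated the groups, in opposite directions, so their ratio had to separate them too and adds no support. SPRR2G relative to SPRR2E was 0.0941, 0.0798, 0.0621 and 0.0649 in HIF1A-KD, against 0.415, 0.316, 0.264 and 0.240 in shCtrl, again without overlap. By rank among the 10 members, SPRR3 was at place 1 or 2 in each HIF1A-KD library and at places 4 to 7 in shCtrl. The ratio to SPRR2E and these ranks use the same levels of SPRR2G and SPRR3 and are no separate support.

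For some members the estimated change was unlike between libraries 1 and 2 and libraries 3 and 4, but no such difference passed limma. The members with the largest differences are given. SPRR3 had a log2 change of 2.36 in libraries 1 and 2 and of 0.78 in libraries 3 and 4, a difference of 1.58 (limma adjusted p = 1.00, unadjusted p = 0.0127). SPRR2F had 2.00 and −0.31, a difference of 2.31 (limma adjusted p = 1.00, unadjusted p = 0.00733). SPRR2A had 0.35 and −0.34, a difference of 0.68 (limma adjusted p = 1.00, unadjusted p = 0.0779). In this test of the difference, with adjustment over all tested genes, limma called 0 members and 0% of 11899 genes. SPRR1A, at 1.45 and 1.29, and SPRR2G, at −2.43 and −2.27, had nearly the same estimates on both sides of that split. With the split as a term in place of the block, SPRR1A and SPRR2G were called (limma adjusted p = 0.00845 and 0.0374).

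**Figure D4:**
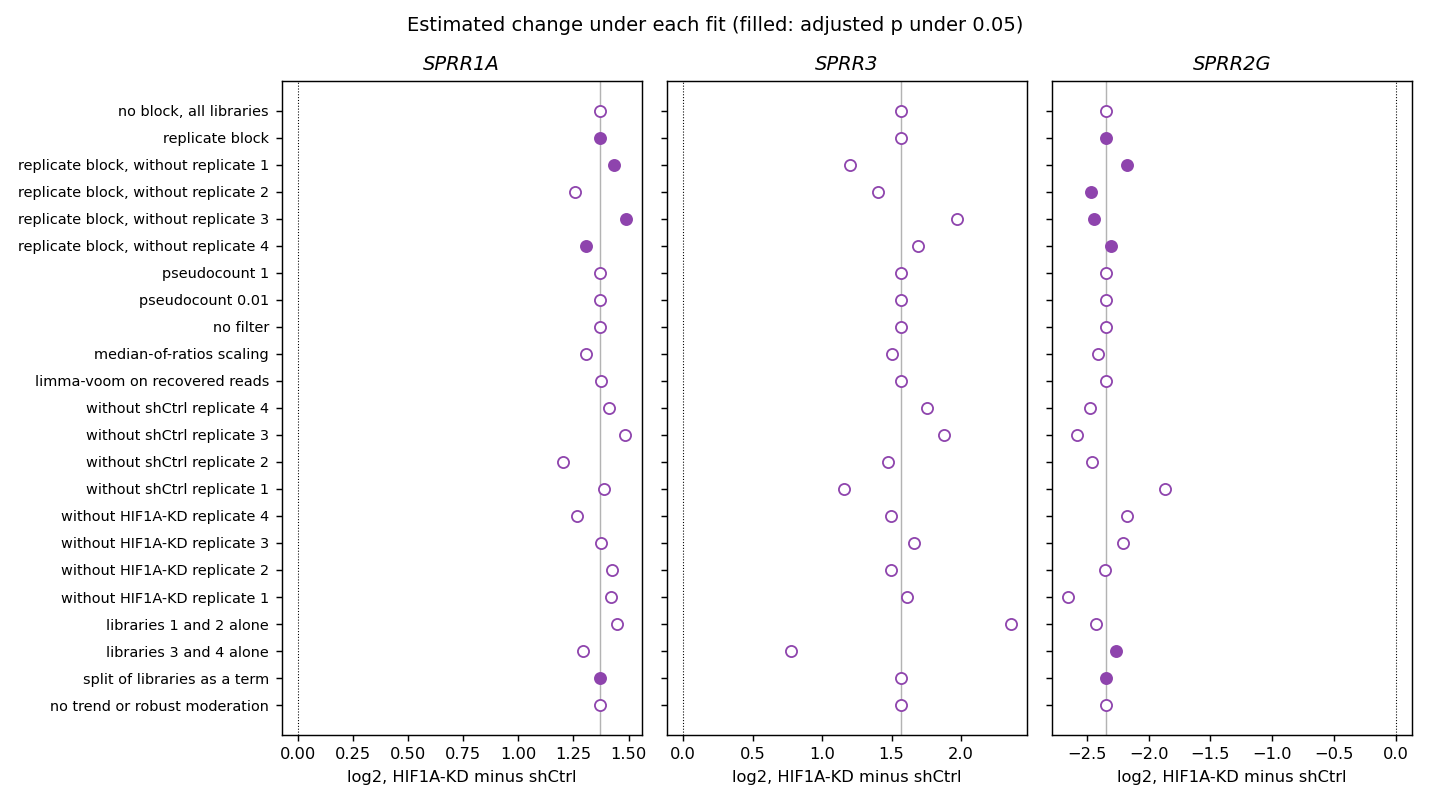
Estimated log2 change, HIF1A-KD minus shCtrl, of SPRR1A, SPRR3 and SPRR2G (panels) under each fit (rows), where filled circles have a limma adjusted p under 0.05 and the grey line is the estimate from all libraries without a block. SPRR1A stays between 1.20 and 1.49 and SPRR2G between −2.65 and −1.87, whereas SPRR3 ranges from 0.78 to 2.36 and is never filled.

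In the authors' deposited table of group comparisons, made from these same libraries, 9.02% of 13627 genes had an adjusted p under 0.05, and 3 of the 10 SPRR members were among them. That table, the authors' deposited table, lists SPRR2G at a moderated log2 change of −2.21 (adjusted p = 3.59e-36) and SPRR1A at 1.19 (adjusted p = 1.31e-10). In the authors' deposited table SPRR3 has 1.10 (adjusted p = 0.000517), and the next members are SPRR2D at −0.38 (adjusted p = 0.0671) and SPRR2B at −0.50 (adjusted p = 0.0811). The members it calls are the 3 whose groups did not overlap in RPKM, and no source used here names the tool behind the table. It calls its groups A and B, and its log2 change is of B over A. That change had the sign of HIF1A-KD minus shCtrl in RPKM for 9 of the 10 members (not SPRR2A), and HIF1A stands at −1.29 in the authors' deposited table.

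The SPRR genes lie on chromosome 1 within 180 kb (152943128 to 153123427, hg19, as the deposited table gives them). The order from SPRR4 is SPRR1A, SPRR3 and SPRR1B on the plus strand, then SPRR2D, SPRR2A, SPRR2B, SPRR2E, SPRR2F and SPRR2G on the minus strand. The members that were higher are neighbours, with SPRR1A starting 13.4 kb and SPRR3 31.1 kb from the start of SPRR4, and SPRR2G is at the far end, 178.9 kb away. The pseudogene SPRR2C, which is no member, lies next to SPRR2G and held 46.5 RPKM in HIF1A-KD and 39.6 RPKM in shCtrl (log2 change 0.25, limma adjusted p = 0.956 without and 0.566 with the block). On the far side of SPRR2G, PRR9, another proline-rich gene of the complex, had a log2 change of −3.80 (limma adjusted p = 0.287 without and 0.00512 with the block). PRR9 held 4.58 ± 5.29 RPKM in HIF1A-KD and 95.6 ± 139 RPKM in shCtrl (SD, n = 4 each), where the highest library held 304 RPKM. Beyond SPRR4, the nearest tested gene was IVL, which encodes involucrin, with a log2 change of 0.31 (limma adjusted p = 0.965).

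**Figure D5:**
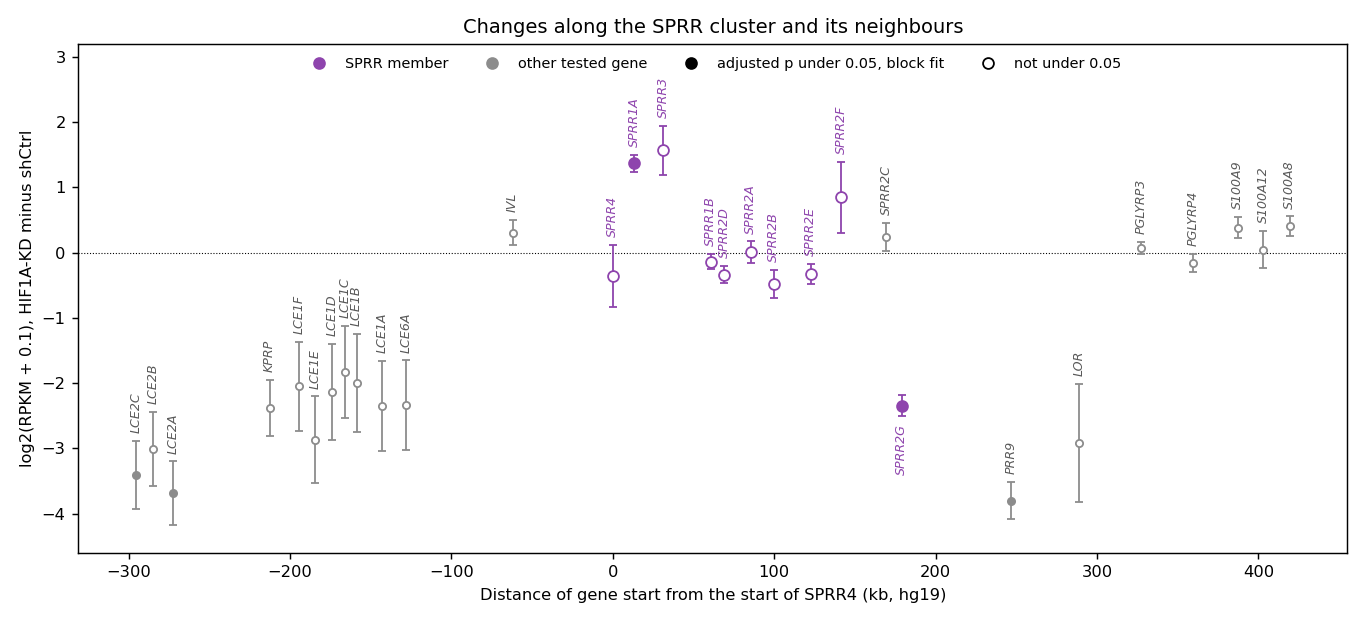
Log2 change, HIF1A-KD minus shCtrl (vertical axis, error bars are the SE of the block fit), of tested genes against the distance of their start from that of SPRR4 in kb, with SPRR members in purple, other genes in grey and filled points at a limma adjusted p under 0.05 with the block. SPRR1A and SPRR2G are the filled SPRR members, at 1.37 and −2.35, and the neighbours at both ends include LCE2A at −3.68 and PRR9 at −3.80.

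Other lists of the same process were read in the same fits, where 7.8% of all tested genes had an unadjusted p under 0.05 without the block and 1.83% were called with it, 1.09% as lower. Of 15 tested envelope partners, 0 passed limma without the block (6 at an unadjusted p under 0.05) and 2 were lower with it, PRR9 at −3.80 (adjusted p = 0.00512) and CRCT1 at −1.51 (adjusted p = 0.0224). PI3, the elafin gene and the most abundant partner, held 7256 ± 3193 RPKM in HIF1A-KD and 15004 ± 4692 RPKM in shCtrl (SD, n = 4 each; log2 change −1.10, limma adjusted p = 0.377 without and 0.0904 with the block). Of 15 late cornified envelope (LCE) genes, which encode envelope proteins added late, 0 passed without the block (8 at an unadjusted p under 0.05) and 4 were lower with it. These were LCE3D at −2.45, LCE3E at −2.43, LCE2A at −3.68 and LCE2C at −3.41. The median log2 change over the 15 was −2.34, but −3.39 in libraries 1 and 2 and −1.16 in libraries 3 and 4, where SPRR2G had −2.43 and −2.27. The limma test of this difference called 0% of 11899 genes, and a list median need not hold for each gene. Like SPRR2G (limma adjusted p = 0.00435 with the block), LCE3D (0.00147) and LCE3E (0.00435) were lower in HIF1A-KD within every number. Others, such as LCE1A, were higher within 1 number. LCE3D held 447 ± 449 RPKM in HIF1A-KD and 2796 ± 3308 RPKM in shCtrl, where shCtrl 1 alone held 7690 RPKM.

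No member of the enzyme, S100 and regulator lists was called, which at shares of 1.83% with the block and 0.042% without it says little for lists of this size. Of the 4 tested transglutaminases, 0 passed limma in either fit, and 0 had an unadjusted p under 0.05. TGM1, the membrane-bound enzyme that cross-links SPRR proteins, held 305 ± 196 RPKM in HIF1A-KD and 375 ± 146 RPKM in shCtrl (SD, n = 4 each; log2 change −0.43, limma adjusted p = 0.943). Of 13 S100 genes from the same complex, 0 passed in either fit (1 at an unadjusted p under 0.05 without the block). S100A9, a calcium-binding protein and the most abundant of them, held 9189 ± 2634 RPKM in HIF1A-KD and 6926 ± 1296 RPKM in shCtrl (log2 change 0.38, limma adjusted p = 0.812). Of 32 tested transcription regulators described for SPRR promoters, among them AP-1, Ets and KLF factors, 0 passed in either fit (3 at an unadjusted p under 0.05 without the block). Their median log2 change was 0.21, and 26 of the 32 were above 0, against a median of 0.064 and 58.7% above 0 over all tested genes. HOPX, a homeodomain cofactor and the most abundant, held 548 ± 218 RPKM in HIF1A-KD and 496 ± 84.0 RPKM in shCtrl.

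The patterns over the 8 libraries were compared by the root mean square difference between log2 profiles centred on their own means, where smaller is more alike, among 7129 genes with a mean of at least 5 RPKM. Closest to SPRR1A were ERV3-1 (0.21), TCN1, a vitamin B12 carrier (0.28), SRD5A3 (0.30), SCNN1B, a sodium channel subunit (0.32), and HIST1H2BK (0.32). Closest to SPRR3 were TMPRSS11D, a transmembrane serine protease (0.25), CRNN, which encodes the squamous protein cornulin (0.26), SRPX2 (0.31), GPD1L (0.32) and the keratin gene KRT19 (0.33). Closest to SPRR2G were AZGP1 (0.26), WFDC12 (0.29), MME, which encodes neprilysin (0.37), the gasdermin gene GSDMA (0.37) and LCE3E (0.42). Among the members themselves, SPRR2D and SPRR2E were the closest pair (0.31), SPRR1A and SPRR3 differed by 0.57, and SPRR2G and SPRR3 were farthest apart (2.32). SPRR2G was 1.01 from its nearest member, SPRR2B. Like sequences share reads, and genes that differ between the groups resemble each other for that alone, so likeness is given as a description.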

How the data were processed

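RNA was sequenced from 4 HIF1A-KD and 4 shCtrl libraries, grouped by the sample titles. The submitters' processing notes name HTSeq 0.6.1, TopHat2 2.0.13 with Bowtie2 2.2.3.0, Picard 1.129, SAMtools 1.3.1, FastQC 0.11.5 and bcl2fastq, and both hg19 and hg38 are named. Gene coordinates in the deposited table carry hg19 contig names. No source used here says whether counting used strand.

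The deposited expression table holds RPKM made by the authors. RPKM times gene length gave whole reads, within 0.01 read, for 100% of genes with a readable length. The implied totals, 38068729 to 65326907 reads, set the counting precision. A second table deposited by the authors gives p-values, log2 changes with and without moderation, the fold ratios behind them and a mean signal in normalised reads.

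Limma 3.58.1 (R 4.3.3) was fitted to log2(RPKM + 0.1) with trend and robust moderation, two-sided, for the 11899 genes that reached 0.5 RPKM in 4 or more libraries. P-values were adjusted by Benjamini and Hochberg over all of them, with a threshold of 0.05. Fold changes on this scale understate those of low genes. The fit without a block is given first and the fit with the library number as a block beside it. Deviations from the group means correlated, over genes, at 0.754, 0.730, 0.252 and 0.257 between the libraries numbered 1, 2, 3 and 4. All exceeded 0.1, so libraries of 1 number were treated as pairs, a reading that the labels do not give. Some libraries of unlike number exceeded 0.1 as well, so that bar does not identify pairs. The pairing of numbers 3 and 4 is uncertain, since shCtrl 3 correlated at 0.463 with HIF1A-KD 4 and shCtrl 4 at 0.613 with HIF1A-KD 3. Both values are above those within these numbers, 0.252 and 0.257. No fit with numbers 3 and 4 exchanged was run. Alternatives were the block, pseudocounts, filter, scaling, limma-voom, left-out libraries and a term that parts numbers 1 and 2 from numbers 3 and 4. Promoters were searched over 250 bases on both strands.

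The 10 members, the gene lists and the tests were chosen with earlier results of these data known. All 10 members and HIF1A are named, the 5 genes of most like pattern for SPRR1A, SPRR3 and SPRR2G, and, from each list of envelope, S100, enzyme and regulator genes, the called genes and the most abundant one. Genes named from the lists of cell type markers, IVL and SPRR2C were chosen after their values were seen.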

Additional observations from a re-analysis of the deposited data

Results flagged for a closer look

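In 4 of the 22 groups of 4 libraries examined, 1 library lay far from the other 3, with a gap to its nearest neighbour above Dixon's 95% critical share of the whole range. Chance flags about 1 in 20 groups when they are independent and normally spread. These groups share libraries and hold RPKM off the log scale, so the count cannot be set against that rate. SPRR2B held 286 RPKM in HIF1A-KD 1, where the gap was 0.854 of the range, and 479 RPKM in shCtrl 1, where it was 0.879. SPRR2G held 5139 RPKM in shCtrl 1, with a gap of 0.916 of the range, and SPRR4 held 25.6 RPKM in the same library, with a gap of 0.887. All 4 values are from libraries numbered 1 and are the highest of their group.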

How the results depend on the processing

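Over 22 alternatives, the log2 change kept its direction for SPRR1A (1.20 to 1.49), SPRR2D (−0.48 to −0.21), SPRR2G (−2.65 to −1.87), SPRR3 (0.78 to 2.36) and HIF1A (−1.61 to −1.07). The count of called genes, 5 without a block, was 218 with the library number as a block and 102 with the split as a term. It was 3 with a pseudocount of 1 or of 0.01, 3 with limma-voom, 3 without trend or robust moderation, 8 with median-of-ratios scaling, 1 without the filter, 0 in libraries 1 and 2 alone and 6 in libraries 3 and 4 alone. Leaving out 1 library gave 0 to 3, and leaving out 1 number from the block fit gave 8 to 190 (38 without number 1, 176 without number 4). The count of SPRR members, 0 without a block, was 2 with the block (SPRR1A and SPRR2G), 2 with the split as a term and 1 in libraries 3 and 4 alone (SPRR2G). It was 1 to 2 in block fits without 1 number and 0 in all other fits. HIF1A passed with the block (−1.34), and in block fits without 1 number it ran from −1.55 to −1.20 and passed only without number 3 (limma adjusted p = 0.00902, against 0.0524 to 0.175 in the other 3). Signs turned only in members that no fit called. SPRR2A was −0.060 with median-of-ratios scaling and −0.34 in libraries 3 and 4 alone. It ran from −0.21 to 0.19 without 1 library, and was −0.073 in the block fit without number 1 and −0.14 without number 2. SPRR2F was −0.31 in libraries 3 and 4 alone. Without 1 library, SPRR1B ran from −0.31 to 0.049, SPRR2B from −1.002 to 0.14, SPRR2E from −0.51 to 0.000437 and SPRR4 from −1.06 to 0.53. The high ends of SPRR2B, SPRR2E and SPRR4 were without shCtrl 1, and SPRR4 was 0.20 in the block fit without number 1. The cause was not tested. The test of the difference between libraries 1 and 2 and libraries 3 and 4 called 0 members under both alternatives. Read number limits SPRR2F and SPRR4, at 29 and 28 reads in their lowest libraries.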
